A study of Mus musculus with 24 samples.

Results

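Muscle microRNA genes were followed in 24 gene arrays of mouse muscle cells in culture. The listed members were 5 genes: Mir1a-1, Mir1a-2, Mir133a-1, Mir133b and Mir206. A member was used where the platform annotation gives a probe set (here called a row) to that symbol alone, and, where several rows qualified, the row was to be chosen by its mean signal, taking the highest. Each of the 4 genes found had only 1 such row, so no measured value decided between rows. These were Mir206 (row 10345028), Mir133a-1 (row 10457485), Mir1a-2 (row 10457487) and Mir1a-1 (row 10479375), out of 19938 genes with a row of their own and 300 such microRNA genes. Mir133b shares row 10345030 with the non-coding gene Lincmd1 and is described through that row without a test.

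The arrays form 8 groups of 3. Wild-type cells came from the H-2Kb-tsA58 line, whose temperature-sensitive transgene keeps myoblasts dividing at 33 °C with interferon-γ, and MuSK-null cells from a MuSK-/- line grown the same way. MuSK is the receptor tyrosine kinase of the neuromuscular junction, and the stated aim was to learn whether it changes the response of muscle cells to bone morphogenetic protein 4 (BMP4), and whether this depends on the differentiation of the cells. Each genotype was cultured as undifferentiated myoblasts and as myotubes made over 3 days at 37 °C in low horse serum without interferon-γ, and each stage was sampled untreated or after 8 h with 25 ng/ml BMP4. Treated myoblasts had first been kept without serum for 4 h. For untreated myoblasts the labels leave this unsaid, so BMP4 and serum withdrawal cannot be told apart in myoblasts from the labels alone, whereas myotubes were treated without serum withdrawal. Each genotype is 1 line, so a difference between genotypes is also a difference between lines. The labels call the 3 samples of a group biological replicates without saying whether they came from separate cultures, so each p-value reflects only how these samples vary, which may be technical.

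MicroRNA genes are transcribed as long primary transcripts. Drosha and Dgcr8 cut a hairpin out of these, Dicer1 trims it, and 1 strand of the product guides an Argonaute protein to messenger RNAs that pair with its seed. The miR-1, miR-206 and miR-133 families are muscle-enriched, and their genes are known targets of MyoD, myogenin and MEF2. The miR-1 and miR-206 guide strands share a seed and are known for promoting differentiation, and miR-133 for acting on proliferation and on Srf. The rows here read hairpin or primary transcript. RNA was cleaned on silica columns, which mainly keep longer RNA, and no value here measures a mature microRNA. The sources used here do not give how far the probes reach beyond each hairpin.

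The members lie in 3 loci, and the RefSeq table (GRCm38.p6) places each inside a longer non-coding gene. Mir206 and Mir133b lie inside Lincmd1. Mir1a-2 and Mir133a-1 lie inside Mir133a-1hg, which itself lies within the span of Mib1, a ubiquitin ligase of Notch signalling, and the span of Mir1a-2 lies within that of Mir1b. Mir1a-1 lies inside Mir1a-1hg together with Mir133a-2, which is no listed member. Rows at 1 locus may therefore read 1 transcript and are not independent. RefSeq sequences were found for 3 of the 5 members.

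The guide strands made from the Lincmd1 locus are shown because Mir206 was the member called with BMP4 in myoblasts. The seeds (bases 2 to 8) are in capitals and differ between the families. Both lie on the plus strand of GRCm38.p6, at chr1:20679055-20679076 and chr1:20682834-20682855.
miR-206-3p: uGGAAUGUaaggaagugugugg
miR-133b-3p: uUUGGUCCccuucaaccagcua

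The opposite strands of Mir206 and Mir1a-1 are shown because they relate members from different chromosomes. They lie at chr1:20679017-20679039 and chr2:180389057-180389079, with seeds again in capitals. They are identical at 20 of 23 bases. Counted from 1 at the 5′ end, with miR-206-5p first, the substitutions are G5A, C17G and U19C, and only G5A falls in the seed.
miR-206-5p: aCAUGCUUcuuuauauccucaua
miR-1a-1-5p: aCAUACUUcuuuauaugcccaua

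The Mir206 hairpin spans 73 bases at chr1:20679010-20679082, with the 5p arm and then the 3p arm in capitals. It is shown because any probe confined to it reads this short piece of the transcript.
Mir206 hairpin: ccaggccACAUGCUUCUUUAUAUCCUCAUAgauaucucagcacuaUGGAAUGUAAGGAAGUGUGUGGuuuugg

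Start windows are shown for the host genes Lincmd1 (chr1:20669632-20669931, plus strand) and Mir1a-1hg (chr2:180385354-180385653, plus strand). They were chosen because Mir206 was called with BMP4 in myoblasts and Mir1a-1 in wild-type myotubes only. The responses of these rows were not tested against each other. Each window runs from 250 bases before to 50 after the annotated start. Capitals mark E-boxes (CANNTG, the core bound by MyoD and myogenin) and the MEF2 consensus, both searched on either strand.
Lincmd1 start: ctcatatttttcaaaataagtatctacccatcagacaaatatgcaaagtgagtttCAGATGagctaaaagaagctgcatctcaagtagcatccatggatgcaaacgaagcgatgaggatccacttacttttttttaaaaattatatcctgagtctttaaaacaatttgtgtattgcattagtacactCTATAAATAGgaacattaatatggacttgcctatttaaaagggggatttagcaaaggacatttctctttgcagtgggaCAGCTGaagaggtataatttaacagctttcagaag
Mir1a-1hg start: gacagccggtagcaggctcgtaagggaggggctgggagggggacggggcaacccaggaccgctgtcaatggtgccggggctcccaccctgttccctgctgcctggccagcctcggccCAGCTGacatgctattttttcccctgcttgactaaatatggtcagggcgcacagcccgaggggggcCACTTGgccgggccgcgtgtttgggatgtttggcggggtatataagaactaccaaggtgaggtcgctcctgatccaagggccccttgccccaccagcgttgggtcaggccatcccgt

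The Lincmd1 window holds 2 E-boxes, 195 bases before and 15 after the start, and 1 MEF2 consensus 63 bases before it. The Mir1a-1hg window holds 2 E-boxes, 133 and 67 bases before the start, and no match to the MEF2 consensus. Of 32841 RefSeq windows of this length, 72.3% held an E-box, 16.3% the form CAGCTG, which is in both windows, and 3.19% the MEF2 consensus. CAGCTG is itself an E-box, so these matches overlap. The matches describe letters only.

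Values are log2 signals as deposited, and differences are log2 differences from a limma fit with 1 mean per group over all 24 arrays. A gene was called at a Benjamini-Hochberg adjusted p under 0.05 over the 19938 genes, and every adjusted p below is of this kind. Musk, the deleted gene, was lower in each MuSK-null array (10.69 to 11.32) than in each wild-type array (11.50 to 12.84), although the sources used here do not place its probes relative to the deletion. All 14 measured myotube markers were called higher in untreated myotubes than in untreated myoblasts in both genotypes. Their mean signal per array was 11.28 to 11.40 in untreated wild-type myoblasts, 8.80 to 8.91 in untreated MuSK-null myoblasts, 13.24 to 13.31 in untreated wild-type myotubes and 12.85 to 12.86 in untreated MuSK-null myotubes. In bulk RNA, a larger share of differentiated cells and more RNA per cell cannot be told apart. In 4 myoblast arrays, 1 of each myoblast group, the deviations from the group means ran together, with correlations of 0.42 to 0.54 across genes. These are replicate 2 of both MuSK-null myoblast groups, replicate 2 of untreated wild-type and replicate 3 of treated wild-type myoblasts. They were picked as the combination with the highest mean correlation over rows without a gene symbol. The correlations are therefore no test of a batch. Results of the members that use myoblasts were recomputed without these 4 arrays, with the called ones and the changed calls given below.

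All 4 members were called higher in untreated myotubes than in untreated myoblasts, in both genotypes, where 20.3% (wild type) and 18.2% (MuSK-null) of all genes were called higher. Mir1a-2, which encodes a miR-1 precursor, rose most on the log2 scale. In wild type it read 4.55, 3.89 and 4.11 in myoblasts and 6.52, 6.45 and 6.32 in myotubes. In MuSK-null cells it read 3.69, 3.67 and 3.89 in myoblasts and 7.96, 8.10 and 8.19 in myotubes. The ranges of myoblasts and myotubes are far apart in both lines. The rise was 2.25 (SE 0.17, adjusted p = 1.02e-10), or 4.75-fold, in wild type and 4.33 (SE 0.17, adjusted p = 7.28e-16), or 20.1-fold, in MuSK-null cells. The myoblast values lie close to the low end of the table, whose values run from 2.5 to 15.03. No detection call was analysed here, so these values may be background and the folds may understate the change.

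Mir133a-1, a miR-133 precursor from the same host gene, read 5.49, 5.31 and 5.12 in untreated wild-type myoblasts and 6.13, 6.56 and 6.39 in untreated wild-type myotubes. In MuSK-null cells it read 5.20, 5.24 and 5.25 in myoblasts and 7.76, 7.80 and 7.21 in myotubes. The groups did not overlap in either line. Its rise was 1.05 (SE 0.14, adjusted p = 6.52e-07) in wild type and 2.36 (SE 0.14, adjusted p = 8.71e-13) in MuSK-null cells. Mir1a-1, a miR-1 precursor from another chromosome, had the smallest of the 4 rises in both lines. It read 3.88, 3.78 and 3.97 in untreated wild-type myoblasts and 4.72, 4.77 and 4.76 in untreated wild-type myotubes, a rise of 0.87 (SE 0.12, adjusted p = 1.49e-06). In untreated MuSK-null cells it read 3.69, 3.83 and 3.76 in myoblasts and 4.92, 4.89 and 4.64 in myotubes, a rise of 1.06 (SE 0.12, adjusted p = 9.21e-08). Its myoblast values are likewise near the low end of the table.

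Mir206, the skeletal muscle member of the miR-1 family, was already clearly above the low end in myoblasts. It read 8.48, 8.03 and 8.22 in untreated wild-type myoblasts against 9.57, 9.74 and 9.27 in untreated wild-type myotubes, a rise of 1.28 (SE 0.15, adjusted p = 1.12e-07). In untreated MuSK-null cells it read 7.85, 7.76 and 7.82 in myoblasts and 9.93, 9.89 and 9.54 in myotubes, a rise of 1.98 (SE 0.15, adjusted p = 8.96e-11). Myotube arrays were all above myoblast arrays. The shared Lincmd1/Mir133b row differed in the same direction, by 0.84 in wild type and 1.93 in MuSK-null cells, given without a test.

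**Figure D1:**
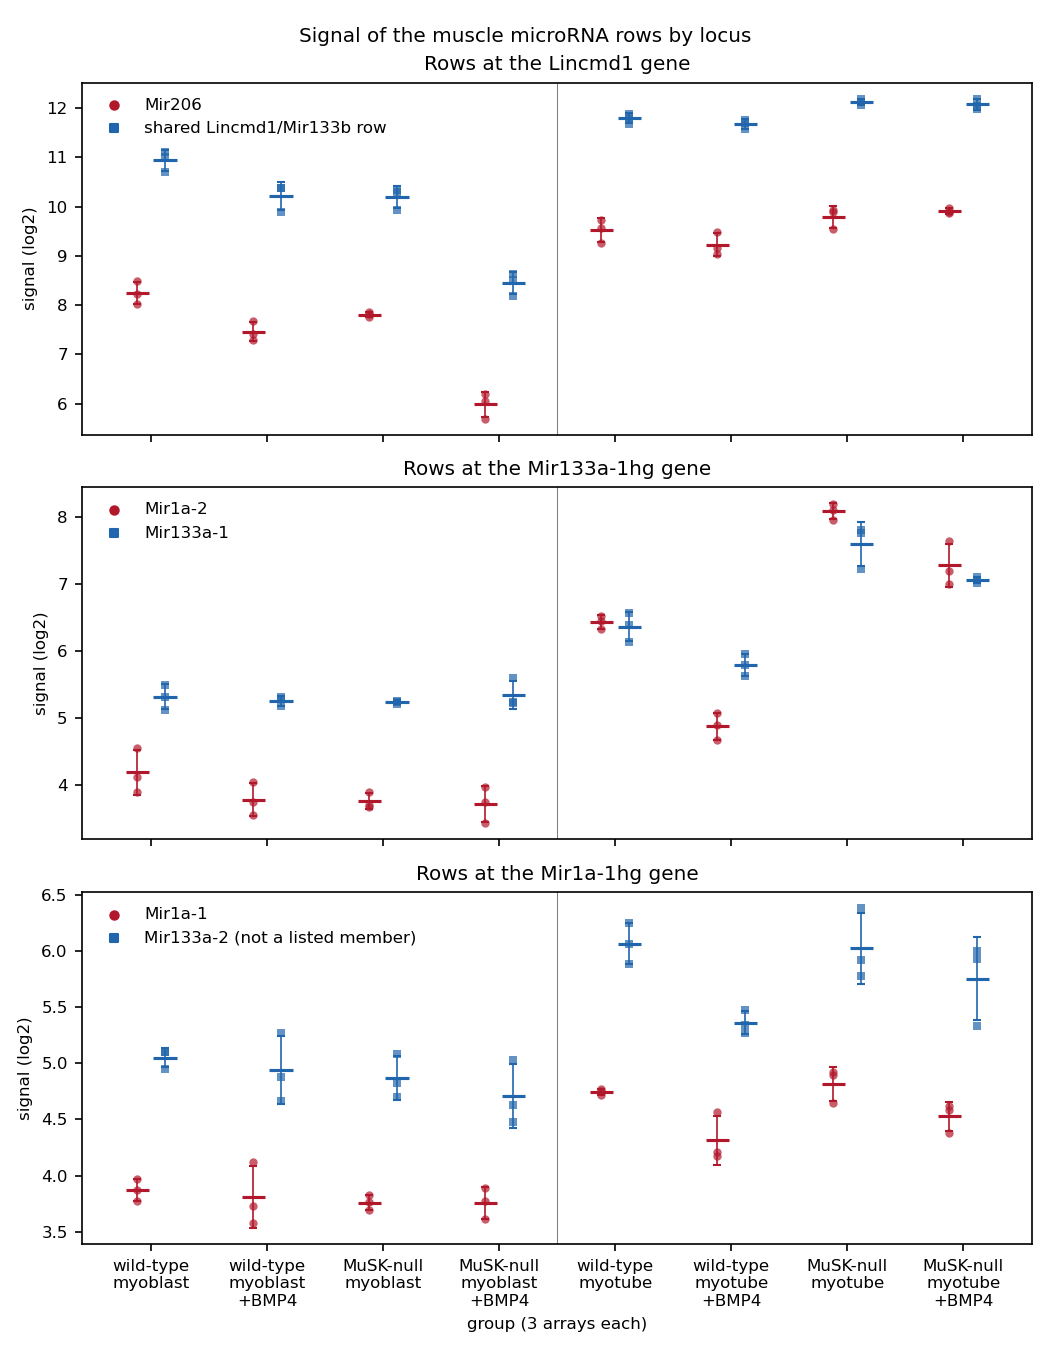
Log2 signal of the member rows in the 8 groups, 1 panel per host gene, with points for arrays, wide horizontal lines for group means and vertical bars for the SD of 3 arrays; each panel has its own scale. Myotubes lie right of the vertical grey line: the rows at Lincmd1 dip in BMP4-treated MuSK-null myoblasts (Mir206 mean 5.99), and those at Mir133a-1hg are highest in untreated MuSK-null myotubes (Mir1a-2 mean 8.08).

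The rise from myoblast to myotube was larger in MuSK-null than in wild-type cells for 3 of the 4 members, tested as an interaction in which 14.9% of all genes were called in that direction. The difference of rises was 2.08 for Mir1a-2 (SE 0.24, adjusted p = 3.52e-07), 1.31 for Mir133a-1 (SE 0.19, adjusted p = 1.01e-05) and 0.70 for Mir206 (SE 0.21, adjusted p = 0.0131). For Mir1a-1 it was 0.18 (SE 0.17, adjusted p = 0.476). Without the 4 arrays that deviate together these were 2.19 (adjusted p = 1.69e-06), 1.31 (adjusted p = 0.000322) and 0.78 (adjusted p = 0.0188), and all 4 rises remained called in both lines, from 0.82 for Mir1a-1 in wild type to 4.29 for Mir1a-2 in MuSK-null cells. The myoblast values of Mir1a-2 near the low end of the table enter this interaction, so a difference between the lines there may not have been detectable. The same interaction was called higher for all 14 myotube markers, with a median of 2.07 against 0.04 over all genes. Their part in the microRNA results was not tested.

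In myoblasts, Mir206 fell with BMP4 in both genotypes, and no other member was called. It was the 1 member of 4 called lower in wild type, where 5.76% of all genes were, and in MuSK-null cells, where 4.52% were. In wild-type myoblasts Mir206 read 8.48, 8.03 and 8.22 untreated and 7.42, 7.68 and 7.29 with BMP4. In MuSK-null myoblasts it read 7.85, 7.76 and 7.82 untreated and 6.20, 6.06 and 5.70 with BMP4. Treated arrays were all below untreated ones in each line, and the treated MuSK-null arrays were the lowest of all 24. The change was -0.78 (SE 0.15, adjusted p = 0.000539), or 1.72-fold lower, in wild type and -1.82 (SE 0.15, adjusted p = 4.83e-09), or 3.53-fold lower, in MuSK-null cells. Without the 4 arrays that deviate together it was -0.80 (adjusted p = 0.00723) and -1.88 (adjusted p = 1.75e-06).

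The fall of Mir206 was larger in MuSK-null than in wild-type myoblasts by 1.04 on the log2 scale (interaction -1.04, SE 0.21, adjusted p = 0.005). Mir206 was the 1 member called lower in this interaction, in which 1.22% of all genes were called lower. Without the 4 arrays the interaction was -1.08 (adjusted p = 0.0412). The shared Lincmd1/Mir133b row read 11.11, 10.70 and 11.01 in untreated and 10.37, 10.39 and 9.89 in treated wild-type myoblasts. It read 10.33, 9.93 and 10.29 in untreated and 8.52, 8.20 and 8.63 in treated MuSK-null myoblasts. The differences of its means were -0.73 and -1.74, given without a test. Treated arrays were below untreated ones in both lines, as for Mir206 at the same locus.

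The other members were not called in myoblasts. Mir1a-2 read 4.04, 3.75 and 3.54 in treated wild-type myoblasts, overlapping the untreated arrays, with a difference of -0.41 (SE 0.17, adjusted p = 0.162). In treated MuSK-null myoblasts it read 3.96, 3.42 and 3.74, a difference of -0.04 (SE 0.17). Mir133a-1 read 5.17, 5.30 and 5.27 in treated wild-type and 5.59, 5.21 and 5.23 in treated MuSK-null myoblasts, with differences of -0.06 and 0.11 (SE 0.14 each). Mir1a-1 read 4.12, 3.58 and 3.73 in treated wild-type and 3.78, 3.61 and 3.89 in treated MuSK-null myoblasts, with a difference of -0.06 in wild type and a 95% interval from -0.25 to 0.25 in MuSK-null cells. With values near the low end of the table a fall of Mir1a-1 or Mir1a-2 in myoblasts may not be detectable.

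In myotubes, Mir1a-2 and Mir133a-1 fell with BMP4 in both lines, Mir1a-1 fell in wild type, and Mir206 was not called. In wild-type myotubes 3 of 4 members were called lower, where 4.37% of all genes were. Mir1a-2 read 6.52, 6.45 and 6.32 untreated and 5.06, 4.66 and 4.90 with BMP4. Every treated array was over 1 log2 unit below every untreated one. The change was -1.56 (SE 0.17, adjusted p = 7.74e-07), or 2.94-fold lower. This fall was known when the members were chosen, so neither its p-value nor its place in the count of 3 is independent support. Mir133a-1 read 6.13, 6.56 and 6.39 untreated and 5.78, 5.94 and 5.63 with BMP4, also without overlap, a change of -0.57 (SE 0.14, adjusted p = 0.00671). Without replicate 2 of untreated wild-type myotubes it was -0.47 and no longer called (adjusted p = 0.059). Mir1a-1 read 4.72, 4.77 and 4.76 untreated and 4.57, 4.21 and 4.18 with BMP4. The treated arrays were all lower, replicate 1 by the least, and the change was -0.43 (SE 0.12, adjusted p = 0.0221). That call was lost without any 1 of 5 of the 6 arrays, the exception being replicate 1 of treated wild-type myotubes. The adjusted p was 0.0523, 0.0732 and 0.064 without untreated replicates 1, 2 and 3, and 0.108 and 0.118 without treated replicates 2 and 3.

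In MuSK-null myotubes 2 of 4 members were called lower, where 5.90% of all genes were. Mir1a-2 read 7.96, 8.10 and 8.19 untreated and 7.0, 7.63 and 7.19 with BMP4, a change of -0.81 (SE 0.17, adjusted p = 0.00164), or 1.75-fold lower. Mir133a-1 read 7.76, 7.80 and 7.21 untreated and 7.05, 7.10 and 7.01 with BMP4, a change of -0.54 (SE 0.14, adjusted p = 0.00851). The groups did not overlap for either. The call of Mir133a-1 was lost without replicate 1 (-0.46, adjusted p = 0.063) or replicate 2 (-0.43, adjusted p = 0.0677) of untreated MuSK-null myotubes. Mir1a-1 read 4.92, 4.89 and 4.64 untreated and 4.38, 4.62 and 4.59 with BMP4. Its difference of -0.29 was not called (SE 0.12, adjusted p = 0.143).

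Mir206 read 9.57, 9.74 and 9.27 in untreated and 9.48, 9.15 and 9.03 in treated wild-type myotubes, a difference of -0.31 (SE 0.15, adjusted p = 0.257). In MuSK-null myotubes it read 9.93, 9.89 and 9.54 untreated and 9.98, 9.87 and 9.89 with BMP4, a difference of 0.13 (SE 0.15, adjusted p = 0.735). Treated and untreated arrays overlapped in both lines. The 95% intervals of the differences ran from -0.61 to -0.00 and from -0.18 to 0.43, so the change of -1.82 in MuSK-null myoblasts lies outside both. The shared Lincmd1/Mir133b row differed by -0.11 and -0.05.

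**Figure D2:**
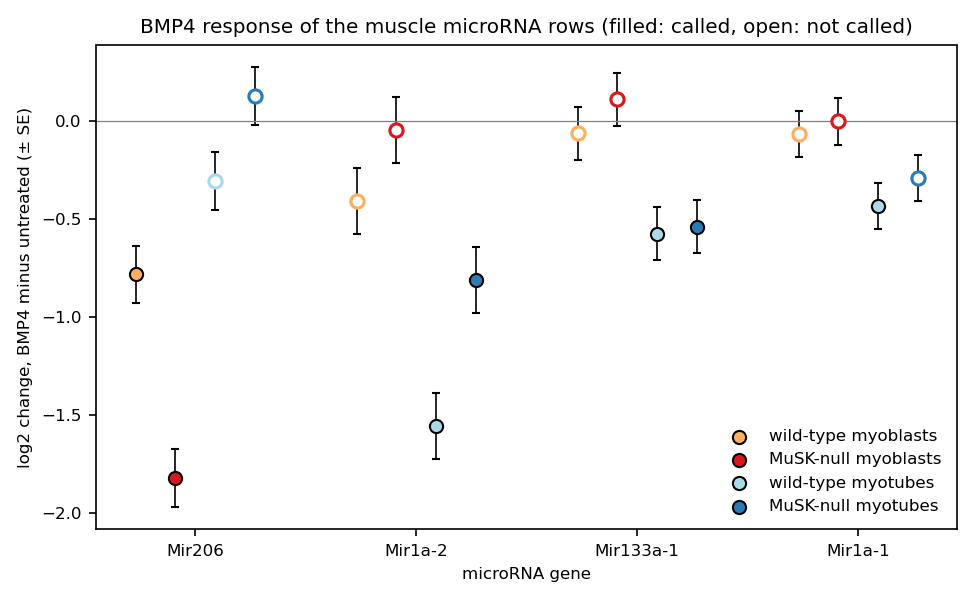
Log2 change of each member with BMP4 (treated minus untreated, 3 arrays a group, whiskers show the SE), with filled points called at an adjusted p under 0.05 and open points not called. Mir206 has its called changes in myoblasts (-0.78 and -1.82), and Mir1a-2 and Mir133a-1 have theirs in myotubes (-1.56 to -0.54).

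Differences between stages were tested as interactions, myotube response minus myoblast response. Treated myoblasts had been kept without serum and myotubes had not. From the labels alone, stage and serum withdrawal therefore cannot be told apart in these values. In wild type 1 member was called lower, against 1.5% of all genes: Mir1a-2 responded more negatively in myotubes by 1.15 (interaction -1.15, SE 0.24, adjusted p = 0.00534). Its wild-type myoblast means of 4.18 untreated and 3.78 treated left little room for a fall, so the starting level and a difference in response cannot be told apart here. Without the 4 deviating arrays this interaction was -1.12 (adjusted p = 0.0117). The wild-type myotube fall within it was known when the members were chosen, so neither p-value is independent support. In MuSK-null cells 1 member was called higher, against 3.24% of all genes, and 1 lower, against 2.92%. Mir206 was the higher one, with 1.95 (SE 0.21, adjusted p = 9.84e-07), or 2.01 without the 4 arrays (adjusted p = 2.9e-05). Mir133a-1 was the lower one, with -0.65 (SE 0.19, adjusted p = 0.0436). This call did not survive the removal of any 1 of 9 of the 12 arrays (adjusted p up to 0.141 without replicate 1 of treated MuSK-null myoblasts). For Mir1a-2 in MuSK-null cells the value was -0.76 (SE 0.24, adjusted p = 0.0626), called without treated MuSK-null replicate 2 of the myoblasts (-0.91, adjusted p = 0.0252) or of the myotubes (-0.94, adjusted p = 0.016). Removing the 4 deviating arrays turned both calls in MuSK-null cells: Mir1a-2 was called (-0.87, adjusted p = 0.0382) and Mir133a-1 was not (-0.72, adjusted p = 0.0879). The low myoblast level of Mir1a-2 bears on this value too. In wild-type cells Mir206 had a value of 0.48 that was not called (SE 0.21, adjusted p = 0.331).

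The genotypes did not differ detectably in the myotube responses, where 0 of 4 members and 3.21% of all genes were called in either direction by limma. Before adjustment, 2 members were below 0.05. Mir1a-2 had a difference of 0.75 (SE 0.24, adjusted p = 0.106, 95% interval 0.25 to 1.24), and Mir206 one of 0.43 (SE 0.21, adjusted p = 0.36). The three-way interaction, the stage difference in MuSK-null cells minus that in wild type, was called for Mir206 alone, at 1.47 (SE 0.29, adjusted p = 0.00564), in a direction in which 1.18% of all genes were called. Without the 4 arrays it was 1.51 (adjusted p = 0.0213). The serum withdrawal of treated myoblasts enters this value too.

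Between genotypes, Mir206 was lower in MuSK-null myoblasts, and Mir1a-2 and Mir133a-1 were higher in MuSK-null myotubes. In untreated myoblasts 1 of 4 was called lower in MuSK-null cells, where 16% of all genes were. Mir206 was lower by 0.44 (-0.44, SE 0.15, adjusted p = 0.0255). This call was lost without untreated wild-type replicate 1 (-0.32, adjusted p = 0.156) or 3 (-0.45, adjusted p = 0.0509), and without untreated MuSK-null replicate 2 (-0.41, adjusted p = 0.0746) or 3 (-0.44, adjusted p = 0.0566). Mir1a-2 had -0.43 (SE 0.17, adjusted p = 0.0569), which was called without untreated wild-type replicate 2 (-0.58, adjusted p = 0.0173). Without the 4 deviating arrays both were called, Mir206 at -0.52 (adjusted p = 0.0424) and Mir1a-2 at -0.54 (adjusted p = 0.0362). In treated myoblasts Mir206 was again the 1 member called lower, where 15.6% of all genes were, by 1.48 (-1.48, SE 0.15, adjusted p = 2.75e-08), or 2.78-fold. Without the 4 arrays that deviate together the treated difference was -1.60 (adjusted p = 2.69e-06). All 14 myotube markers were also called lower in MuSK-null myoblasts, untreated and treated, with medians of -2.40 and -2.24. Of 10 fibroblast markers, 6 were called higher and 2 lower in untreated and 5 and 1 in treated MuSK-null myoblasts, with mean signals per array of 9.07 to 9.12 against 8.44 to 8.51 untreated and 9.03 to 9.07 against 8.35 to 8.50 treated. The part of these marker shifts in the Mir206 result was not tested.

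In untreated myotubes 2 of 4 members were called higher in MuSK-null cells, where 19.4% of all genes were. Mir1a-2 was higher by 1.65 (SE 0.17, adjusted p = 3.34e-08) and Mir133a-1 by 1.23 (SE 0.14, adjusted p = 1.01e-07), or 3.14-fold and 2.35-fold. The lowest MuSK-null array lay above the highest wild-type array for each. Mir206 differed by 0.26 (SE 0.15, adjusted p = 0.179) and Mir1a-1 by 0.07 (SE 0.12, adjusted p = 0.698). In treated myotubes 3 of 4 were called higher, where 17.5% of all genes were: Mir1a-2 by 2.40 (SE 0.17, adjusted p = 6.92e-11), Mir133a-1 by 1.27 (SE 0.14, adjusted p = 6.8e-08) and Mir206 by 0.69 (SE 0.15, adjusted p = 0.000545). Mir1a-1 differed by 0.21 (SE 0.12, adjusted p = 0.19), and was called at 0.34 without replicate 1 of treated wild-type myotubes (adjusted p = 0.0361). Here the myotube markers went the other way, with 11 of 14 called lower in untreated MuSK-null myotubes and 0 higher. The cycling myoblast markers are genes of dividing cells together with the myoblast factors Pax7 and Myf5. They had 7 of 10 called higher and 0 lower in the same contrast. Their mean signals per array were 9.72 to 9.80 in MuSK-null and 9.13 to 9.26 in wild-type myotubes. Of the fibroblast markers, 7 of 10 were called higher and 2 lower, with mean signals of 9.97 to 10.08 against 8.91 to 8.99. The part of these marker shifts in the microRNA results was not tested.

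The order of the 8 group means was the same for Mir1a-2 and Mir133a-1 over the myotube groups: untreated MuSK-null, treated MuSK-null, untreated wild type, treated wild type. For both genes these 4 groups did not overlap with the next in order. The 4 myoblast groups came below them, and every neighbouring pair overlapped. Mir1a-1 had the same 4 myotube groups on top, in the order untreated MuSK-null, untreated wild type, treated MuSK-null and treated wild type. Its first pair overlapped, and so did its treated pair. Mir206 had an order of its own. Its 4 myotube groups all overlapped their neighbours, from treated MuSK-null at 9.91 ± 0.06 (SD, n = 3) down to treated wild type at 9.22 ± 0.23 (SD, n = 3). Its myoblast groups stood apart from each other, from untreated wild type at 8.24 ± 0.23 (SD, n = 3) through untreated MuSK-null at 7.81 ± 0.05 and treated wild type at 7.46 ± 0.20 to treated MuSK-null at 5.99 ± 0.26.

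Over the 8 group means, which share these arrays and the strong stage difference, Mir1a-2 and Mir133a-1 had a Pearson r of 0.99. Mir206 had 0.84 with Mir1a-2, 0.78 with Mir133a-1 and 0.87 with Mir1a-1. Among 4047 genes whose group means span at least 1 log2 unit, the closest to Mir1a-2 were Akap1, Mir133a-1 and Mfhas1 (r from 0.984 to 0.993), and the closest to Mir133a-1 were Akap1, Mir1a-2 and Asb15 (r from 0.985 to 0.995). Those closest to Mir1a-1 were Itga9, Mfsd4a and Wnt10a (r from 0.991 to 0.993), and those closest to Mir206 were Pvr, Hacd1 and Bin1 (r from 0.974 to 0.983). Akap1 encodes an anchoring protein of mitochondria, and Bin1 a membrane-shaping protein of muscle.

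The surrounding genes were read where they had rows. Mib1, whose span holds the Mir1a-2 and Mir133a-1 locus, fell by 0.34 from untreated wild-type myoblasts to myotubes (SE 0.07, adjusted p = 0.000396) and fell by 0.22 in MuSK-null cells (SE 0.07, adjusted p = 0.0158), where both microRNA rows rose. With BMP4 in myotubes its differences were -0.06 in wild type (adjusted p = 0.737) and 0.13 in MuSK-null cells (adjusted p = 0.356). Mir133a-2, which shares a host gene with Mir1a-1, read 6.25, 5.89 and 6.06 in untreated and 5.27, 5.34 and 5.48 in treated wild-type myotubes. This was a fall without overlap, of -0.70 (SE 0.18, adjusted p = 0.0134). In MuSK-null myotubes its difference was -0.27 (SE 0.18, adjusted p = 0.458). It rose from myoblasts to myotubes by 1.02 in wild type (SE 0.18, adjusted p = 5.22e-05) and by 1.16 in MuSK-null cells (SE 0.18, adjusted p = 1.07e-05). A list of 18 measured host or neighbouring genes also holds genes at other muscle microRNA loci, such as Myh6 and Myh7b. Of these 18, 5 were called higher and 5 lower in wild-type myotubes against myoblasts, where 20.3% and 24.7% of all genes were. Pkhd1, which neighbours the Lincmd1 locus, rose by 2.25 in wild type (SE 0.08, adjusted p = 2.55e-16) and by 3.23 in MuSK-null cells (SE 0.08, adjusted p = 1.67e-19). It also fell with BMP4 in wild-type myotubes, with -0.53 (SE 0.08, adjusted p = 8.15e-05), where Mir206 was not called.

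Of the 296 other microRNA genes on the array, 16 were called higher and 38 lower in untreated wild-type myotubes against myoblasts, with a median of -0.08, and 18 higher and 23 lower in MuSK-null cells, with a median of 0.01. Ranked among all 300 by log2 change, Mir1a-2 had the largest rise from myoblasts to myotubes in both genotypes, and Mir206 ranked 3 in both. Mir206 had the largest fall with BMP4 in both kinds of myoblasts, and in MuSK-null myoblasts ranked 6 among the falls of all 19938 genes. Mir1a-2 had the largest fall with BMP4 in both kinds of myotubes, ranking 2 among all genes in wild type and 99 in MuSK-null cells. Its wild-type fall was known when the members were chosen, so that rank is no independent support. Mir133a-1 ranked 3 among microRNA falls in both kinds of myotubes. With BMP4, the counts of other microRNA genes called higher and lower were 7 and 7 in wild-type myoblasts, 8 and 5 in MuSK-null myoblasts, 1 and 5 in wild-type myotubes, and 6 and 3 in MuSK-null myotubes. Of all genes, 5.21% and 5.76%, 3.89% and 4.52%, 4.40% and 4.37%, and 5.36% and 5.90% were called, in the same order. Mir181b-1 rose by 0.68 in wild-type myoblasts (SE 0.07, adjusted p = 1.19e-07), with a difference of 0.39 in MuSK-null ones. Mir181b-2 fell in MuSK-null myoblasts, with -0.74 (SE 0.12, adjusted p = 9.64e-05), and its difference in wild-type ones was -0.36. Among 18 other microRNA genes known in muscle, 0 fell with BMP4 in myoblasts by limma, and Mir27a rose in wild-type (0.51, adjusted p = 0.00183) and MuSK-null myoblasts (0.39, adjusted p = 0.0215). Mir27a belongs to the cluster of Mir23a.

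**Figure D3:**
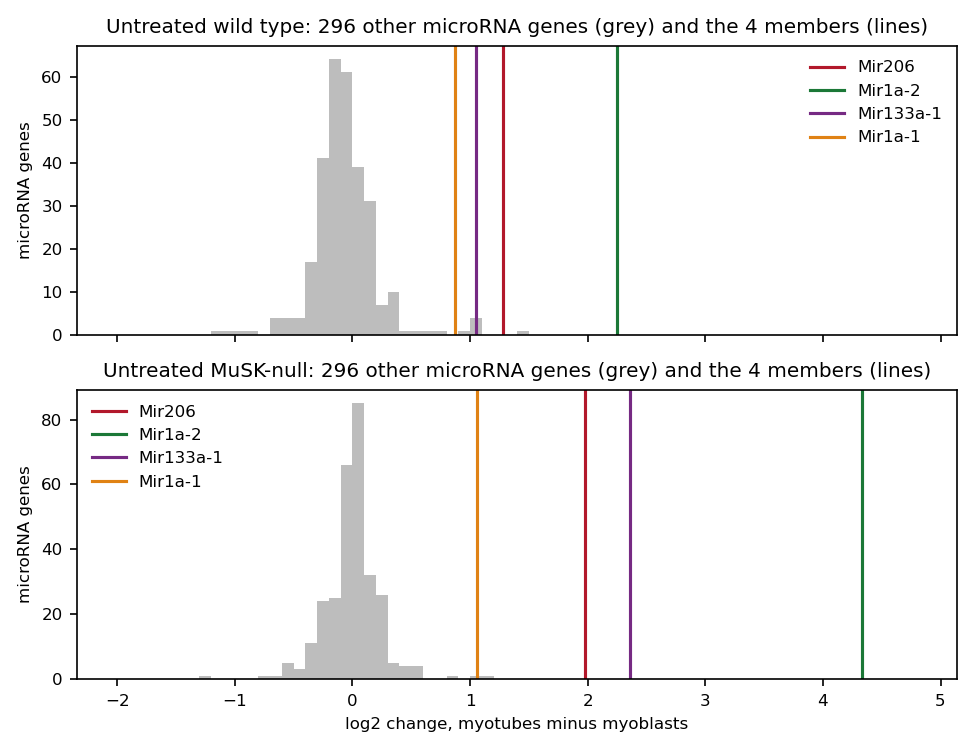
Histograms of the log2 change from untreated myoblasts to untreated myotubes over the 296 other microRNA genes (grey, number of genes per bin), with coloured lines at the 4 members, for wild type (top) and MuSK-null cells (bottom). The 4 members lie in the right tail of both, with Mir1a-2 farthest at 2.25 and 4.33.

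Transcription factors of the muscle microRNA genes were read from a list with 19 measured. It also holds the deacetylases Hdac4, Hdac5 and Hdac9 and repressors such as Twist1, so its counts mix activators and repressors. Hdac4 and Srf appear again in the target lists below. With BMP4, 5 were called higher and 5 lower in wild-type myoblasts, 1 and 6 in MuSK-null myoblasts, 2 and 1 in wild-type myotubes, and 3 and 1 in MuSK-null myotubes. Of all genes, 5.21% and 5.76%, 3.89% and 4.52%, 4.40% and 4.37%, and 5.36% and 5.90% were called, in the same order. Myod1, the master factor of muscle fate, fell by 0.21 in wild-type (SE 0.05, adjusted p = 0.00755) and fell by 0.59 in MuSK-null myoblasts (SE 0.05, adjusted p = 2.62e-08), and the 2 falls differed (interaction -0.38, SE 0.07, adjusted p = 0.00476). In myotubes it differed by 0.10 in wild type (adjusted p = 0.324) and rose by 0.25 in MuSK-null cells (SE 0.05, adjusted p = 0.00199). Myog, the differentiation factor, fell by 0.44 (SE 0.07, adjusted p = 3.39e-05) and fell by 0.67 (SE 0.07, adjusted p = 1.11e-07) in the same myoblasts, but the difference of falls was not called (-0.23, adjusted p = 0.323). In myotubes Myog differed by -0.07 (adjusted p = 0.64) in wild type and was not called in MuSK-null cells (adjusted p = 0.994). Mef2a fell in both kinds of myoblasts, with -0.51 (SE 0.07, adjusted p = 2.1e-05) and -0.62 (SE 0.07, adjusted p = 1.95e-06). Mef2c fell by 0.18 in wild-type myoblasts (SE 0.05, adjusted p = 0.0288) and had -0.15 in MuSK-null ones (adjusted p = 0.115). Id1, an inhibitor of MyoD and a direct BMP target, rose with BMP4 by 2.44 in wild-type myoblasts (SE 0.07, adjusted p = 4.1e-16), 0.99 in MuSK-null myoblasts (SE 0.07, adjusted p = 1.25e-09), 2.05 in wild-type myotubes (SE 0.07, adjusted p = 1.11e-14) and 2.19 in MuSK-null myotubes (SE 0.07, adjusted p = 2.1e-15). Its rise was smaller in MuSK-null than in wild-type myoblasts (interaction -1.45, SE 0.10, adjusted p = 1.06e-08), where the fall of Mir206 was larger. The level of Id1 was higher in MuSK-null myoblasts both untreated and treated. The differences were 1.96 untreated (SE 0.07, adjusted p = 6.9e-16) and 0.51 treated (SE 0.07, adjusted p = 6.98e-06). The part of Id1 in the Mir206 result was not tested.

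**Figure D4:**
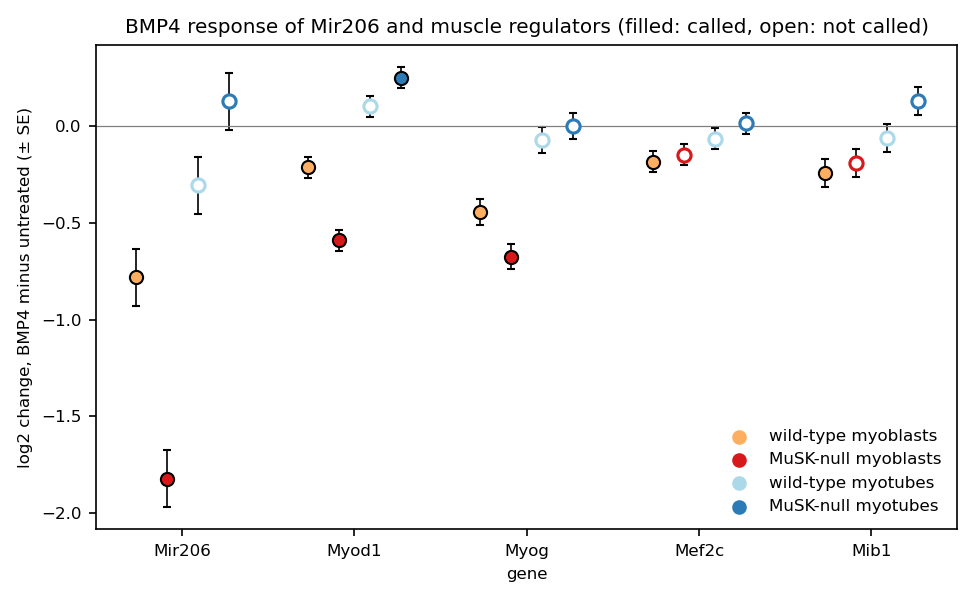
Log2 change with BMP4 (treated minus untreated, 3 arrays a group, whiskers show the SE) of Mir206, of the muscle factors Myod1, Myog and Mef2c, and of Mib1, in the 4 cultures, with filled points called and open points not called. Mir206, Myod1 and Myog are called lower in both kinds of myoblasts, with Mir206 at -0.78 and -1.82.

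Pax7, the satellite cell factor, was not called with BMP4 in any culture. Across stages, 8 of the 19 listed genes were called higher and 7 lower in wild type, where 20.3% and 24.7% of all genes were. In MuSK-null cells 8 and 8 were, where 18.2% and 23.4% of all genes were. Myf6, the factor of mature fibres, rose by 2.72 and 4.07 (SE 0.13 each), and Mef2c by 1.86 and 3.70 (SE 0.05 each). Between untreated genotypes, 6 of the 19 were called higher and 7 lower in MuSK-null myoblasts, where 15.3% and 16% of all genes were. Myog and Mef2c were lower there by 1.99 and 2.16 (-1.99, SE 0.07, and -2.16, SE 0.05), and Mir206 by 0.44. In untreated MuSK-null myotubes 7 were called higher and 5 lower, where 19.4% and 18% of all genes were. Myog differed by 0.03 (adjusted p = 0.736). Myod1 was lower in MuSK-null myotubes (-0.66, SE 0.05, adjusted p = 5.38e-10), and so was Mef2c (-0.32, SE 0.05, adjusted p = 4.23e-05). Myf5 and Twist2 were higher (1.44 and 1.10), where Mir1a-2 and Mir133a-1 were higher.

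Of 22 measured genes that process or use microRNAs, 2 were called higher and 13 lower in myotubes than in myoblasts in wild type, and 2 and 14 in MuSK-null cells. Of all genes, 24.7% and 23.4% were called lower. The list had medians of -0.22 and -0.26 against -0.05 and -0.01 over all genes. Khsrp, which promotes processing of some precursors, fell in wild type (-1.02, SE 0.06, adjusted p = 1.07e-12), and Mov10, an RNA helicase, in MuSK-null cells (-1.32, SE 0.09, adjusted p = 2.26e-11). Ago4 rose in wild type (0.76, SE 0.09, adjusted p = 9.57e-08), and Ago2, the slicing Argonaute, rose in MuSK-null cells (0.33, SE 0.05, adjusted p = 1.52e-05). With BMP4 at most 1 of the 22 was called in each direction in any culture. Ago2 fell in wild-type myoblasts (-0.32, SE 0.05, adjusted p = 0.000155).

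Messenger RNAs reported as targets were taken from lists of 24 measured for miR-1 and miR-206 and 18 for miR-133, and the rows measure their RNA only. From myoblasts to myotubes 7 of the 24 were called higher and 10 lower in wild type, and 4 and 12 in MuSK-null cells. Of all genes, 20.3% were called higher and 24.7% lower in wild type, and 18.2% and 23.4% in MuSK-null cells. The medians of the list were -0.18 and -0.28, against -0.05 and -0.01 over all genes. Pola1, a DNA polymerase subunit, fell in wild type (-1.78, SE 0.10, adjusted p = 8.57e-13), and the receptor gene Met in MuSK-null cells (-2.79, SE 0.07, adjusted p = 1.63e-19). Ccnd1, cyclin D1, rose in wild type (0.78, SE 0.06, adjusted p = 4.08e-10) and fell in MuSK-null cells (-1.44, SE 0.06, adjusted p = 7.2e-15). With BMP4 in MuSK-null myoblasts, where Mir206 fell most, 4 were called higher and 3 lower, against 3.89% and 4.52% of all genes. Sox9 rose (0.93, SE 0.07, adjusted p = 4.91e-10) and Notch3 fell (-0.96, SE 0.08, adjusted p = 4.72e-09). In wild-type myoblasts 8 were called higher and 4 lower, against 5.21% and 5.76% of all genes, with Timp3 at 1.33 (SE 0.10, adjusted p = 9.13e-10). Hdac4, a repressor of MEF2 and a known miR-1 target, was called lower with BMP4 in MuSK-null myoblasts (-0.39, SE 0.09, adjusted p = 0.00428) and higher in MuSK-null than in wild-type untreated myotubes (0.53, SE 0.09, adjusted p = 2.68e-05).

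Of the miR-133 targets, 3 of 18 were called higher and 6 lower from myoblasts to myotubes in wild type, and 3 and 8 in MuSK-null cells, with medians of -0.12 and -0.20 against the same all-gene values. With BMP4 in myotubes, where Mir133a-1 fell, 3 were called higher and 1 lower in wild type and 3 and 0 in MuSK-null cells. Of all genes, 4.40% and 4.37% were called in wild type and 5.36% and 5.90% in MuSK-null cells. Ccn2, connective tissue growth factor, rose by 0.67 in wild-type (SE 0.09, adjusted p = 1.35e-05) and 0.86 in MuSK-null myotubes (SE 0.09, adjusted p = 2.57e-07). It also rose in both kinds of myoblasts (1.30 and 1.24, SE 0.09 each), where Mir133a-1 was not called. Srf, a known miR-133 target, was not called with BMP4 in any culture (differences from -0.03 to -0.02).

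Markers of muscle stage moved with BMP4 too. The shares of all genes called with BMP4 are those given for the list of transcription factors above. In myoblasts 7 of 14 myotube markers were called lower with BMP4 in each genotype and 0 higher, with medians of -0.26 in wild type and -0.25 in MuSK-null cells, while Mir206 changed by -0.78 and -1.82. The genotype difference of the response was called for 1 of the 14, in the higher direction, and for Mir206 in the lower. In myotubes 2 of 14 were called lower in each genotype, with medians of -0.09 and -0.05. Of 7 osteoblast markers 4 were called higher with BMP4 in each kind of myoblast and 3 in each kind of myotube, and 0 lower. Cycling markers had 1 of 10 called higher with BMP4 in wild-type myoblasts and 0 in MuSK-null ones. The part of these shifts in the microRNA results was not tested. The members' contrasts with BMP4 share their untreated arrays with the contrasts between genotypes and stages, so these are not separate evidence.

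Markers of other tissues were read for the cells the cultures might hold. The shares of all genes called with BMP4 are again those given for the transcription factors. With BMP4, the called counts (higher and lower) in wild-type myoblasts, MuSK-null myoblasts, wild-type myotubes and MuSK-null myotubes, in this order, were 1 and 2, 1 and 2, 0 and 0, and 1 and 3 of 10 fibroblast markers. For 10 smooth muscle markers they were 2 and 1, 1 and 1, 2 and 1, and 1 and 4. For 10 cardiac markers, relevant because miR-1 and miR-133 are abundant in heart, they were 0 and 1, 1 and 0, 0 and 0, and 0 and 0. For 8 adipocyte markers they were 1 and 0, 2 and 0, 1 and 0, and 2 and 0, and for 7 neuron and glia markers 0 and 1, then 0 and 0 in the other cultures. From untreated myoblasts to myotubes the cardiac markers had 2 called higher and 2 lower in each genotype.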

How the data were processed

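Total RNA of 24 samples (8 groups of 3) was read on Affymetrix mouse gene arrays. The authors deposited 1 table of log2 values per probe set. The submitters' processing notes name Affymetrix Expression Console and Partek without versions or roles, and the sources used here do not state the normalization. Array medians ran from 7.38 to 7.50, and no further normalization was applied.

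Of 35556 rows, 21789 had 1 gene symbol, 1621 several and 12146 none; rows with 1 symbol were used, and the row with the highest mean where a gene had several, leaving 19938 genes. Limma 3.58.1 in R 4.3.3 was fitted with 1 mean per group over all 24 arrays (16 residual degrees of freedom), with 16 contrasts and Benjamini-Hochberg adjustment over all genes at 0.05. The code was tested on simulated data. The number of arrays limits the precision.

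Members and gene lists were chosen with earlier results of these data known, and a direction already seen there is not independent support. Named genes are the members, the 3 genes most like each, Myod1, Myog, Mef2c, Mib1, Hdac4, Pax7, Runx2 (not measured here) and Srf, and from each list up to 4 called genes per contrast, those with the largest change (2 in each direction). Musk, Id1 and Mir133a-2 were added outside this rule, as the deleted gene, a BMP target and the neighbour of Mir1a-1.

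Alternatives were the compared groups alone, trend and robust moderation, dim genes left out, quantile normalization, median centring, each row tested, a replicate block, the 4 deviating arrays as a block or left out, a test for a change beyond 1.5-fold, and each array left out in turn.

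Replicate numbers were checked by the correlation of deviations from the group means. Every number's correlation passed 0.1 only among both MuSK-null myoblast groups and untreated wild-type myoblasts (0.12 to 0.51), so the block is given in the closing section.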

Additional observations from a re-analysis of the deposited data

Results flagged for a closer look

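Tests of a difference between genotypes or stages were past the threshold for 8 results on the members, each with adjusted p from limma in the report. The rise from myoblasts to myotubes was larger in MuSK-null cells by 2.08 for Mir1a-2, 1.31 for Mir133a-1 and 0.70 for Mir206. The BMP4 response of Mir206 in myoblasts was more negative in MuSK-null cells (-1.04). The myotube response minus the myoblast response was 1.95 for Mir206 in MuSK-null cells, -0.65 for Mir133a-1 in MuSK-null cells and -1.15 for Mir1a-2 in wild-type cells. The three-way difference of Mir206 was 1.47. With 3 arrays a group, single arrays were not tested as outliers.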

How the results depend on the processing

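With each array left out in turn, the count of members called ran from 1 to 3 with BMP4 in wild-type myotubes (1 without replicate 2 of untreated wild-type myotubes), 1 to 2 in MuSK-null myotubes, 0 to 2 between untreated myoblasts and 1 to 3 for the stage difference in MuSK-null cells. Signs turned only for differences that were not called. These ran with BMP4 in wild-type myoblasts from -0.219 to 0.0508 (Mir1a-1) and -0.156 to 0.031 (Mir133a-1), in MuSK-null myoblasts from -0.169 to 0.0995 (Mir1a-2) and -0.01 to 0.178 (Mir133a-1), between untreated myoblasts from -0.173 to 0.0136 (Mir133a-1), and between treated myoblasts from -0.165 to 0.105 (Mir1a-1), -0.195 to 0.0739 (Mir1a-2) and -0.0274 to 0.16 (Mir133a-1). The genotype difference ran from -0.0509 to 0.219 (Mir1a-1, myoblasts) and -0.153 to 0.15 (Mir133a-1, myotubes), and the three-way difference from -0.0774 to 0.202 (Mir1a-1). Without the 4 deviating arrays, Mir1a-2 in MuSK-null myoblasts was 0.058 and the three-way difference of Mir1a-1 was -0.041. The cause was not tested.

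A stricter limma test asked whether a change was beyond 1.5-fold, so an estimate above 1.5-fold may still not be called. Mir206 in wild-type myoblasts, estimated as 1.72-fold lower, was not called by it. Members called were 0 with BMP4 in both wild-type myoblasts and MuSK-null myotubes, 1 in wild-type myotubes and 0 between untreated myoblasts. They were 0 for the genotype difference in myoblasts, 0 and 1 for the stage differences in wild-type and MuSK-null cells, and 0 for the three-way difference. Over all genes this stricter test called 191, 127, 90 and 141 with BMP4 (wild-type and MuSK-null myoblasts, then myotubes), 948, 862, 1156 and 1102 between genotypes (untreated and treated myoblasts, then myotubes), 2116 and 1898 between stages (wild type, MuSK-null), 1027 for their interaction, 24 and 24 for the genotype differences (myoblasts, myotubes), 13 and 87 for the stage differences (wild type, MuSK-null) and 33 three-way. With the compared groups alone, 1115 genes were called with BMP4 in MuSK-null myoblasts, and 1 member for the stage difference in MuSK-null cells, as under quantile normalization and under median centring. Over all alternatives, the count of members for that stage difference ran from 1 to 3. With the 4 arrays as a block, 745 genes were called for the genotype difference in myoblasts, 1028 for the stage difference in wild type and 783 three-way. Between untreated myoblasts 2 members were called with trend and robust moderation, dim genes left out, quantile normalization, median centring, and the 4 arrays as a block or left out. Leaving out dim genes removed Mir1a-1.

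With the replicate number as a block, the count of members called was unchanged in every contrast, and Mir206 had -1.04 (adjusted p = 0.000717) for the genotype difference in myoblasts and 1.47 (adjusted p = 0.000771) three-way.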
